A study of Mus musculus with 16 samples.

Results

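RNA of the genes that move calcium into and out of the sarcoplasmic reticulum (SR) was compared between ITGA6-low and ITGA6-high cardiomyocytes (CMs) of the fetal and the newborn mouse heart. The genes were chosen by name as *Sln*, *Pln*, *Atp2a2*, *Ryr2*, *Trdn*, *Jph2*, *Casq1*, *Casq2*, *Calr* and *Slc8a1*. All probes that carried 1 of these names were used, which gave 15 of the 55681 probes and 10 of the 34821 gene names on the microarray. Every group consisted of CD1 wild-type hearts, and no transgene or drug was used. At embryonic day (E) 15.5, ErbB-2+/CD49flow cells (EL) and ErbB-2+/CD49fhigh cells (EH) were flow sorted from pools of 20 to 30 hearts, with ErbB-2 as the CM surface marker and CD49f as the integrin α6 chain (ITGA6). At postnatal day (P) 2, non-myocytes from pools of 15 hearts were removed by magnetic beads before the remaining cells were sorted, without ErbB-2, into CD49flow (PL) and CD49fhigh (PH) cells. Each of the 4 groups held 4 samples from separate sorting experiments, numbered 2, 3, 6 and 8 at E15.5 and 2, 3, 4 and 5 at P2, with at least 50000 cells per fraction and 10 ng of RNA per microarray.

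With each heartbeat, calcium that enters through the plasma membrane opens the ryanodine receptor, and the SR empties part of its calcium onto the myofilaments. Relaxation follows when the SERCA pump returns calcium to the SR, where calsequestrin buffers it, and when the sodium-calcium exchanger carries the rest out of the cell. Phospholamban and sarcolipin are small membrane proteins that bind SERCA and lower its affinity for calcium, and in the adult heart phospholamban is known as the ventricular and sarcolipin as the atrial form.

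The values are Agilent signal intensities, quantile normalized, in arbitrary units. Levels of different probes are not comparable, so that each probe was compared only with itself across samples. For a gene with several probes, the brightest probe stands for the gene unless another is named. Differences are on the log2 scale from limma with a mean per group, and a difference passed when its Benjamini-Hochberg adjusted p, over all 55681 probes, was at most 0.05. The share of probes that the scanner software marked as well above background was 35.7 to 46.5% per microarray. All 10 genes were well above background on all 16 microarrays at their brightest probe, and 0 of the spots for these genes was saturated. As a check of the labels, the probe A_55_P2015670 for *Itga6*, the gene selected by the sort, read 525 to 783 in EL, 10910 to 14100 in EH, 240 to 332 in PL and 5709 to 6974 in PH. The second *Itga6* probe, A_55_P1958840, did not separate the fractions (1.48-fold with an adjusted p of 0.0718 at E15.5 and 1.08-fold with 0.869 at P2). This second probe was the brighter on average over the 16 microarrays, so that the check rests on the dimmer probe. All 7 markers of CMs (*Tnnt2*, *Myh6*, *Actc1*, *Actn2*, *Ttn*, *Nkx2-5* and *Tnni3*) were well above background on every microarray. Of these, *Myh6* was 3.58-fold higher (adjusted p = 1.18e-07) and *Actn2* 1.42-fold lower (adjusted p = 0.0029) in EH than in EL. *Ttn* was 1.39-fold lower in PH than in PL (adjusted p = 0.0419), and no other difference of these markers between the fractions passed.

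Compared with EL, 5 of the 10 genes were higher in EH and 1 was lower. Compared with PL, 4 were higher in PH and 2 were lower. Among all probes, 4.27% were higher and 3.83% lower in EH, and 6.15% were higher and 5.41% lower in PH. Among the 22250 probes detected well above background in at least 1 whole group, these shares were 9.77 and 8.93% at E15.5 and 14.1 and 12.1% at P2. The median difference of the 10 genes was 0.27 in EH against EL and 0.32 in PH against PL, and that of all probes was -0.02 and -0.01. With the 3-fold limit of the study's methods added, *Sln* alone among the genes was called higher at E15.5, where 1.17% of all probes were called higher and 0.454% lower. At P2, *Sln* was called higher and *Pln* lower by that rule, against 1.73% and 0.916% of all probes. *Sln* and *Pln*, the regulators of the pump, had the largest differences of the 10 genes in both comparisons.

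**Figure D1:**
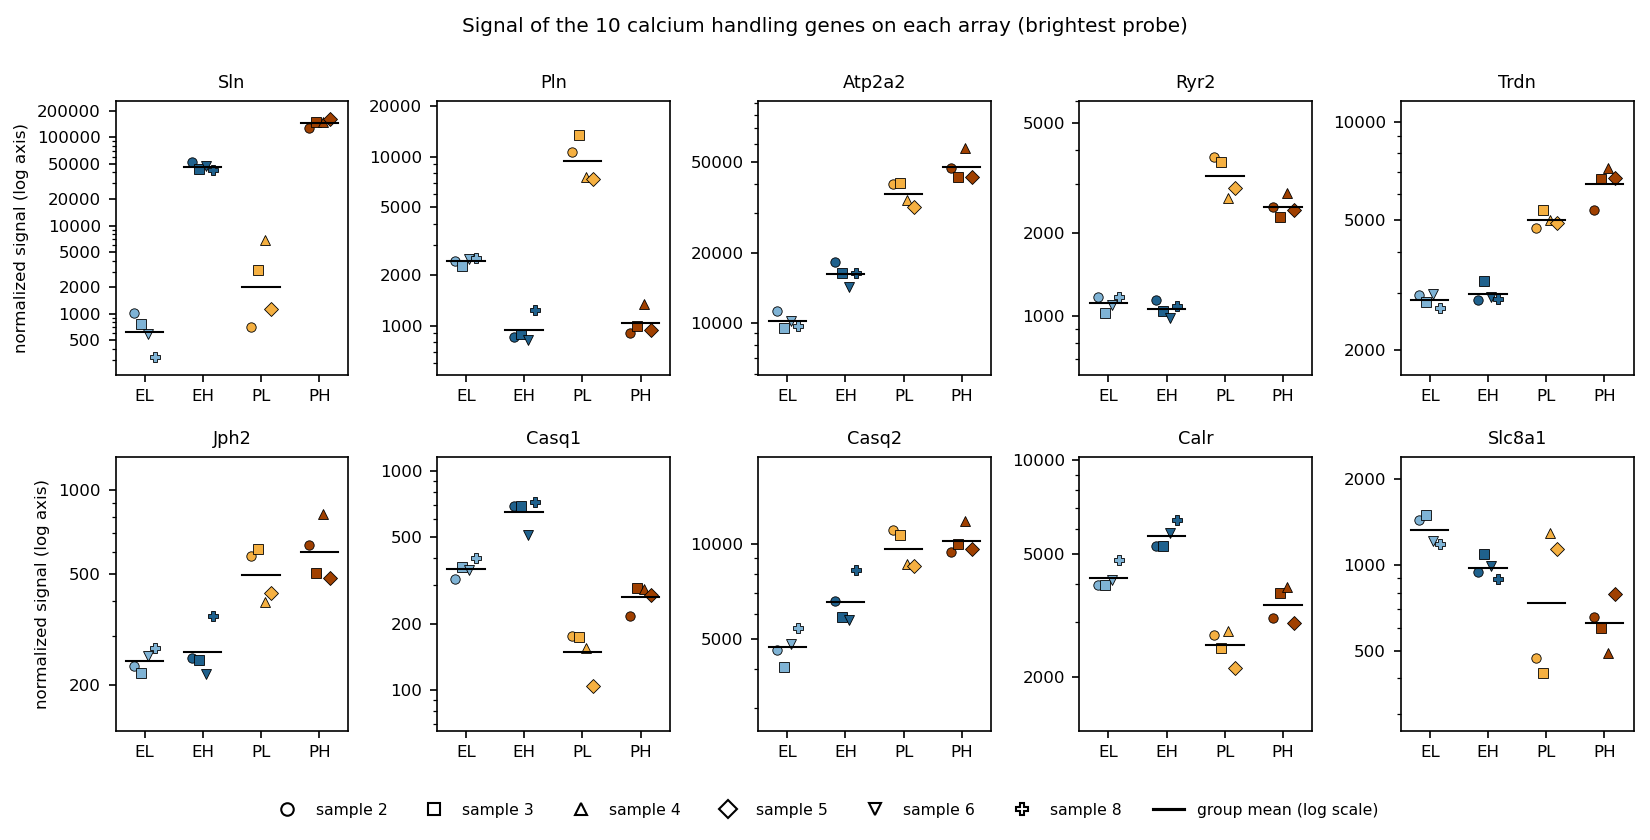
Normalized signal (log axis, arbitrary units) of the brightest probe of each gene in the 16 samples, by group, with each point a sample and each black line the mean of the group on the log scale. *Sln* in EH (43011 to 51912) and PH (128131 to 161965) lies above every EL and PL sample, while *Pln* is highest in PL (7374 to 13375).

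Sarcolipin (*Sln*) is the SERCA inhibitor of atrial and skeletal muscle. Its probe A_52_P413395 lies on the plus strand at chr9:53701574-53701633 (mm9), and that of *Pln*, A_52_P22324, at chr10:53064944-53065003 on the same strand. The first 30 of the 60 bases of both probes are shown, since both carry the largest differences between the fractions.
Sln: gccttagctttgttccctagcaaatgtact
Pln: caaaacagtttatgcctaactttgcaaacc

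For *Sln*, the signal was 1013, 769, 593 and 326 in EL samples 2, 3, 6 and 8, and 51912, 43986, 46763 and 43011 in the EH samples of the same numbers. At P2 it was 704, 3098, 6837 and 1123 in PL samples 2, 3, 4 and 5, and 128131, 147404, 149726 and 161965 in PH. No ITGA6-low sample came near an ITGA6-high sample at either stage, and on the log scale the PL samples lay further apart than those of the other groups. The difference was 6.22 in EH against EL (SE 0.553, 74.3-fold, adjusted p = 7.14e-06) and 6.18 in PH against PL (72.3-fold, adjusted p = 3.57e-06), and the latter was 6.76 without PL sample 4. The difference between the 2 comparisons was -0.04 with an interval of -1.72 to 1.65 (adjusted p = 0.994), so that differences of up to about 3-fold between the stages are within the error. From E15.5 to P2, *Sln* rose in the ITGA6-low cells by 1.70 (3.25-fold, adjusted p = 0.0453), although PL sample 2 lay within the range of EL. In the ITGA6-high cells the same step was 1.66 (3.16-fold) with all PH samples above all EH samples, at an adjusted p of 0.0555. Neither call was firm, as the adjusted p ranged from 0.0061 to 0.133 and from 0.0212 to 0.131 over the alternatives, and the step in ITGA6-low cells did not pass without any 1 of EL samples 3, 6 and 8 and PL samples 3 and 4, with a value of 1.11 without PL sample 4.

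The spread of *Sln* within PL was shared by atrial genes. *Myl7*, the atrial myosin light chain, read 1484, 4897, 10757 and 2088 in PL samples 2, 3, 4 and 5, which is the order of *Sln* in these samples. *Nppa*, the atrial natriuretic peptide, read 9063, 15784, 32669 and 12213. The summed signal of 6 atrial genes (*Myl7*, *Nppa*, *Nr2f2*, *Tbx5*, *Gja5*, *Bmp10*), with *Nppa* as the brightest, was 11865, 22604, 45355 and 15277 in PL, 507830 to 588410 in PH, 19918 to 25595 in EL and 377920 to 396870 in EH. *Bmp10* was well above background on 0 of the EL and PL microarrays and on all EH and PH microarrays. The part of atrial cells in the values of *Sln* was not tested. In samples of many cells, fewer cells of a type and less RNA per cell cannot be told apart.

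Phospholamban (*Pln*), the SERCA inhibitor of ventricular muscle, went the other way. Its signal was 2403, 2238, 2465 and 2529 in EL samples 2, 3, 6 and 8 and 851, 896, 819 and 1235 in EH. At P2 it was 10669, 13375, 7583 and 7374 in PL samples 2, 3, 4 and 5 and 903, 995, 1343 and 939 in PH. All ITGA6-low samples lay above all ITGA6-high samples, and EH and PH overlapped each other. *Pln* was lower in EH than in EL by 1.36 on the log2 scale (SE 0.193, 2.57-fold, adjusted p = 0.000409) and lower in PH than in PL by 3.20 (9.16-fold, adjusted p = 8.73e-08). With stage, *Pln* rose in the ITGA6-low cells by 1.97 (3.93-fold, adjusted p = 5.45e-06). In the ITGA6-high cells its difference with stage was 0.14 with an interval of -0.28 to 0.56 (adjusted p = 0.734). The difference between the fractions was larger at P2 than at E15.5 by 1.83 on the log2 scale (fitted value -1.83, interval -2.42 to -1.25, adjusted p = 0.00184). Among all probes, 1.81% had a difference between the stages above 0 and 1.35% below 0 that passed, and among probes well above background these shares were 4.19 and 3.01%. *Pln* was the only 1 of the 10 genes to pass at its brightest probe, by a 3.57-fold difference, and 0.602% of all probes passed with at least 3-fold in each direction.

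Ventricular markers, like *Pln*, were lower in the ITGA6-high fractions. *Myl2*, the ventricular myosin light chain, read 205884 to 227022 in EL, 76185 to 119000 in EH, 205882 to 227022 in PL and 17238 to 28499 in PH. Quantile normalization gives the same value to the same rank on each microarray. The matching *Myl2* readings of EL and PL therefore show equal ranks and not an unchanged amount of RNA. The summed signal of 5 ventricular genes (*Myl2*, *Irx4*, *Hey2*, *Lbh*, *Myh7*), with *Myl2* as the brightest, was 460350 to 481270 in EL, 141020 to 225680 in EH, 328990 to 366580 in PL and 22877 to 35106 in PH. *Hey2* was well above background on 1 EH microarray and on 0 of the PH microarrays. EH sample 8, which had the highest *Pln* of its group, also had the highest sum of ventricular genes. The part of this in the values of *Pln* was not tested.

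**Figure D2:**
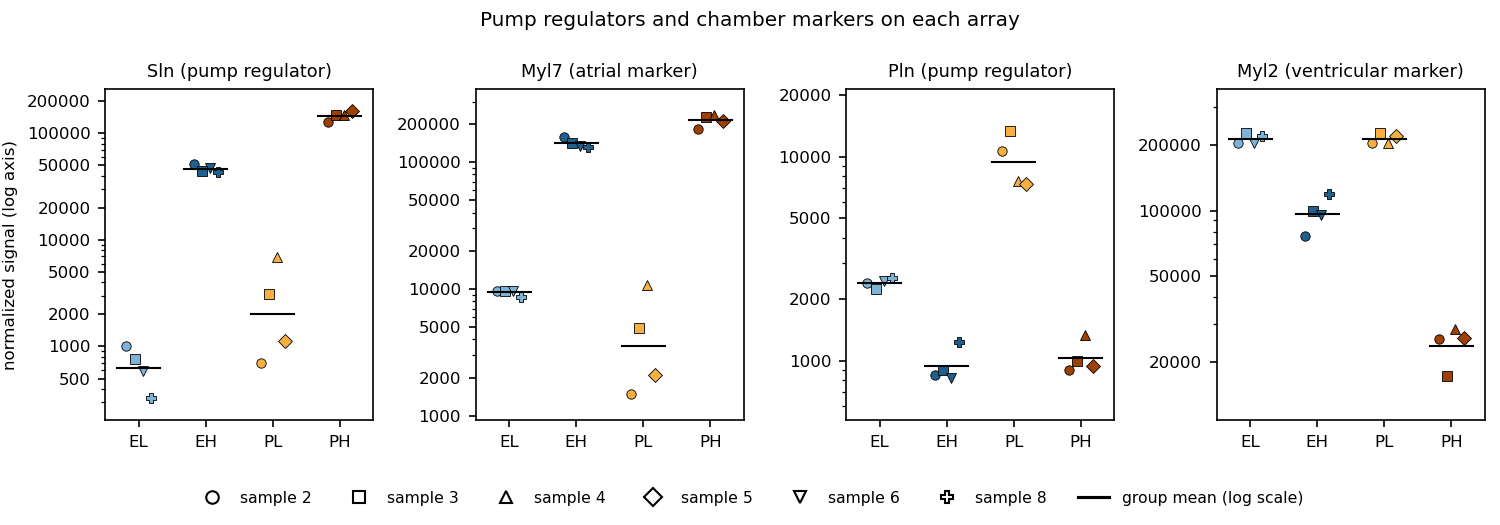
Normalized signal (log axis, arbitrary units) of *Sln* and *Myl7* and of *Pln* and *Myl2* in every sample of the 4 groups, with each point a sample. In PL, *Sln* (704 to 6837) and *Myl7* (1484 to 10757) have their highest value in sample 4 and their lowest in sample 2.

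The pump itself, SERCA2 (*Atp2a2*), differed much less. It had a brighter probe, A_51_P451075, at chr5:122903704-122903763 and a second probe, A_52_P168097, 6.9 kb away at chr5:122910660-122910719, both on the minus strand (mm9). The second is given because it shows the RNA of the protein that both regulators bind in a stretch that can be read as coding sequence.
Atp2a2 second probe: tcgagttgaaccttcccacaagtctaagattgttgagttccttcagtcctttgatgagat

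At the brighter probe the signal was 11241, 9493, 10187 and 9639 in EL and 18378, 16509, 14232 and 16444 in EH, with no overlap. It was 40111, 40521, 33984 and 31812 in PL and 47285, 43011, 57659 and 42841 in PH, again with no overlap. *Atp2a2* was 0.69 higher in EH than in EL (SE 0.116, 1.61-fold, adjusted p = 0.00158). The 0.38 in PH against PL (1.30-fold) fell just short of the threshold with an adjusted p of 0.0511, which ranged from 0.00947 to 0.832 over the alternatives. This difference passed under 7 of 17 alternatives. Among them were the study's analysis of variance with Tukey's test, the normexp background correction, only probes well above background, and the slide as a fixed block. It also passed without PL sample 2, PL sample 3 or PH sample 5. With stage, the pump rose by 1.85 in ITGA6-low cells (3.60-fold, adjusted p = 1.08e-07) and by 1.54 in ITGA6-high cells (2.90-fold, adjusted p = 7.36e-07). The second probe differed by 0.78 in EH against EL (adjusted p = 0.0339) and by 0.37 in PH against PL (adjusted p = 0.371), and it rose with stage by 1.98 and 1.58. At this probe the call in EH against EL passed under 7 of 17 alternatives (adjusted p from 0.011 to 0.11), and it was lost without any 1 of the E15.5 samples other than EH sample 6.

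The SR release channel, the ryanodine receptor *Ryr2*, had 1 probe (chr13:11645812-11645871). At E15.5 its signal was 1171, 1026, 1094 and 1171 in EL and 1143, 1042, 980 and 1084 in EH. These groups overlapped, and the difference was -0.07 with an interval of -0.30 to 0.16 (adjusted p = 0.831). At P2 it was 3769, 3631, 2679 and 2914 in PL and 2483, 2292, 2802 and 2429 in PH, with PL samples 2 and 3 above the others. *Ryr2* was lower in PH than in PL by 0.37 on the log2 scale (1.29-fold, adjusted p = 0.0422), but the groups overlapped and the adjusted p ranged from 0.00972 to 0.124 over the alternatives. The call was lost without any 1 of PL samples 2 and 3 and PH samples 2, 3 and 5, and with the sample number as a block (adjusted p = 0.107). The rise of the channel with stage was much larger, by 1.53 in ITGA6-low cells (2.89-fold, adjusted p = 2.77e-07) and by 1.23 in ITGA6-high cells (2.35-fold, adjusted p = 2.58e-06).

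Triadin (*Trdn*) anchors calsequestrin to the ryanodine receptor and is made as several splice forms. Its 3 probes are shown because they do not read the same part of the gene. On the plus strand of chromosome 10 (mm9), probe 1 (A_51_P249608) lies at chr10:32919981-32920040, probe 2 (A_55_P2401646) 4.1 kb before it at chr10:32915796-32915855, and probe 3 (A_55_P1966778) 274.2 kb after it at chr10:33194264-33194323.
Trdn probe 1: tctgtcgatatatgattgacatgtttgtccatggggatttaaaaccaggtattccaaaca
Trdn probe 2: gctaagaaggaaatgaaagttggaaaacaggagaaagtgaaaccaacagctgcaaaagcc
Trdn probe 3: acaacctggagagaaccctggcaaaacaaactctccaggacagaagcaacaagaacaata

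At probe 1, *Trdn* read 2954, 2805, 2963 and 2696 in EL and 2844, 3264, 2914 and 2879 in EH at E15.5, and 4742, 5373, 5002 and 4899 in PL and 5363, 6653, 7231 and 6702 in PH at P2. EL and EH overlapped, as PL and PH did by PH sample 2 alone, and all P2 samples lay above all E15.5 samples. The difference was 0.06 in EH against EL (adjusted p = 0.822) and 0.37 in PH against PL (1.29-fold, adjusted p = 0.0112). With scaling to the 75th percentile in place of quantiles, the latter was 0.17 (adjusted p = 0.683). Probe 2 gave 0.24 (adjusted p = 0.143) and 0.51 (1.42-fold, adjusted p = 0.00109). With stage, probe 1 rose by 0.81 in ITGA6-low and by 1.12 in ITGA6-high cells (1.75- and 2.17-fold, adjusted p = 1.14e-05 and 8.87e-07).

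The far probe 3 was dim. It read 17, 15.6, 19.3 and 20.8 in EL and 18.5, 16.5, 14.8 and 18.7 in EH, where it was well above background on 2 and 4 of the 4 microarrays. At P2 it read 13.8, 12.9, 7.47 and 29.2 in PL, well above background on 1 microarray, and 34.2, 59.7, 50.4 and 54.4 in PH, well above background on all 4. Only PH stood apart from the other groups at this probe. It was 1.79 higher in PH than in PL (3.47-fold, adjusted p = 0.00123) and 1.51 higher in PH than in EH (2.86-fold, adjusted p = 0.00314), while EH and EL differed by -0.08 (adjusted p = 0.958). The difference between the stages was 1.88 (adjusted p = 0.0327), which passed under 9 of 24 alternatives with adjusted p from 0.00155 to 0.126. Near the background the size depends on how the background was subtracted, and with the normexp correction the PH against PL difference was 0.42 (1.34-fold). In the annotation of the microarray, probes 1 and 3 are listed under different transcripts and probe 2 under both. Which splice forms were present was not measured by these probes.

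**Figure D3:**
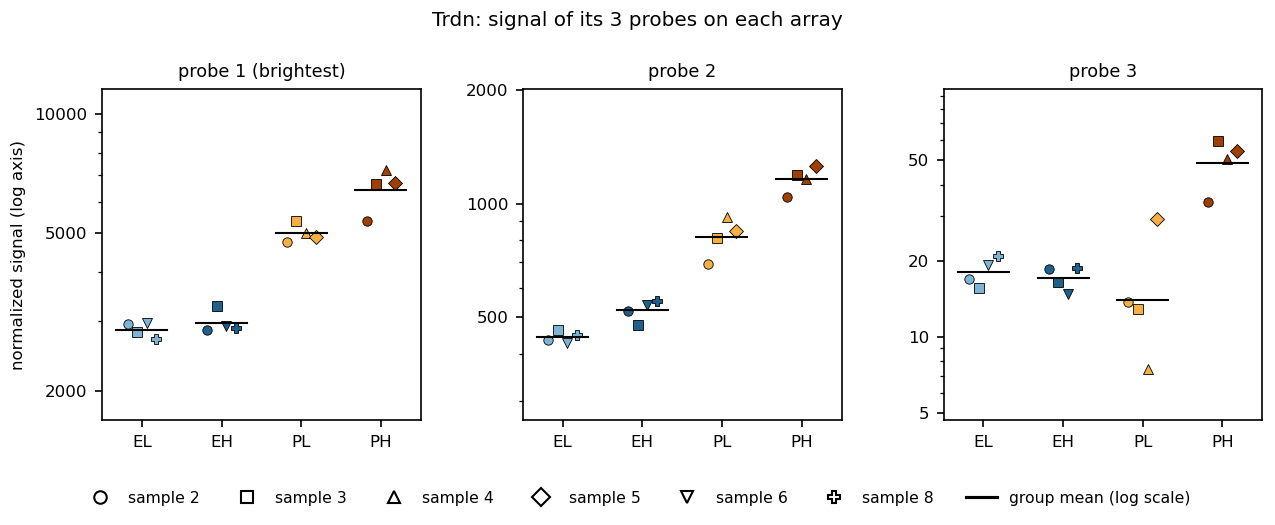
Normalized signal (log axis, arbitrary units) of the 3 *Trdn* probes in every sample by group. Probes 1 and 2 rise with stage in both fractions, whereas probe 3 is highest in PH (34.2 to 59.7) and at or below 29.2 in all other samples.

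Junctophilin 2 (*Jph2*) holds the SR close to the plasma membrane. Its probe (chr2:163163526-163163585) read 234, 222, 255 and 272 in EL and 250, 246, 220 and 353 in EH at E15.5, and 580, 613, 396 and 426 in PL and 634, 505, 819 and 483 in PH at P2. The fractions overlapped at both stages, with differences of 0.10 (interval -0.32 to 0.52, adjusted p = 0.88) and 0.27 (adjusted p = 0.533). With stage it rose by 1.01 in ITGA6-low cells (2.02-fold, adjusted p = 0.00174) and by 1.18 in ITGA6-high cells (2.27-fold, adjusted p = 0.000622), without overlap between the stages.

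Of the calcium-binding proteins in the SR lumen, calsequestrin 1 (*Casq1*) is known as the form of fast skeletal muscle and calsequestrin 2 (*Casq2*) as that of the heart. The *Casq1* probe, A_51_P199104, is given because it is the only 1 of the 15 probes that joins parts of the genome far apart, spanning 1504 bases on the minus strand at chr1:174140602-174142105 (mm9).
Casq1: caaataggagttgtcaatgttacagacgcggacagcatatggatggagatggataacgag

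*Casq1* read 320, 362, 352 and 401 in EL and 691, 693, 510 and 723 in EH at E15.5, and 177, 174, 155 and 104 in PL and 217, 293, 288 and 272 in PH at P2. The fractions did not overlap at either stage, and every P2 sample lay below every E15.5 sample. It was higher in EH than in EL by 0.86 (1.81-fold, adjusted p = 0.00498) and in PH than in PL by 0.83 (1.78-fold, adjusted p = 0.00412), and the difference between the 2 comparisons was -0.03 (adjusted p = 0.984). With stage it fell by 1.26 in ITGA6-low cells (2.39-fold, adjusted p = 8.67e-05) and fell by 1.29 in ITGA6-high cells (2.44-fold, adjusted p = 9.09e-05). Of 9 skeletal muscle genes, *Tnni2* was the brightest and 1 to 3 were well above background per microarray, and their summed signal was 1844 to 2890 in EL, 669 to 813 in EH, 759 to 1058 in PL and 1823 to 3068 in PH. This sum, most of which was *Tnni2*, was lower in EH than in EL and higher in PH than in PL. The fast troponin *Tnnt3* was higher in EH by 0.80 (adjusted p = 0.0215) and at least 3.46-fold higher in PH (adjusted p = 4.56e-06). *Myog*, the myogenin gene, was well above background on 4 of 4 EH, 2 of 4 PH and 0 EL and PL microarrays, and it was at least 2.17-fold higher in EH (adjusted p = 0.0405). It also passed as higher in PH (adjusted p = 0.00881), although its PL and PH samples overlapped and no PL microarray was well above background, so that no fold is given. The other 6 genes of the list (*Myod1*, *Myf5*, *Pax7*, *Myh1*, *Myh2* and *Myh4*) were well above background on 0 microarrays. The part of skeletal muscle genes in the values of *Casq1* was not tested.

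*Casq2* (chr3:101949827-101949884) read 4591, 4074, 4804 and 5395 in EL and 6593, 5864, 5744 and 8242 in EH, without overlap, and it was 0.48 higher in EH (1.39-fold, adjusted p = 0.0434). This call was lost without any 1 of EL samples 2, 3 and 6 and EH samples 2 and 8, and with the sample number as a block (adjusted p = 0.0505), and its adjusted p ranged from 0.0173 to 0.278 over the alternatives. At P2 the signal was 11058, 10684, 8631 and 8502 in PL and 9438, 10022, 11831 and 9662 in PH, with overlap and a difference of 0.08 (interval -0.21 to 0.37, adjusted p = 0.893). In contrast to *Casq1*, the cardiac form rose with stage, by 1.04 in ITGA6-low cells (2.06-fold, adjusted p = 6.31e-05) and by 0.64 in ITGA6-high cells (1.56-fold, adjusted p = 0.0037).

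Calreticulin (*Calr*), a calcium-binding chaperone of the endoplasmic reticulum that is abundant in the embryonic heart, was measured at chr8:87366192-87366251 (mm9). It read 3950, 3966, 4098 and 4779 in EL and 5305, 5302, 5828 and 6419 in EH at E15.5, and 2725, 2473, 2821 and 2142 in PL and 3096, 3738, 3901 and 2974 in PH at P2. Like *Casq1*, it was higher in the ITGA6-high fraction without overlap at both stages and lower at P2 than at E15.5. The differences were 0.44 in EH against EL (1.36-fold, adjusted p = 0.0281) and 0.43 in PH against PL (1.35-fold, adjusted p = 0.0246). Over the alternatives the adjusted p ranged from 0.00975 to 0.279 and from 0.00785 to 0.273, and the call was lost at E15.5 without any 1 of EL samples 2, 3 and 6 and EH samples 6 and 8, and at P2 without any 1 of PL samples 3 and 5 and PH samples 3 and 4. With stage *Calr* fell by 0.73 in ITGA6-low cells (1.66-fold, adjusted p = 0.000346) and fell by 0.74 in ITGA6-high cells (1.67-fold, adjusted p = 0.000361).

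*Hspa5*, the chaperone BiP of the same compartment, followed *Calr*. It was 0.57 higher in EH (adjusted p = 0.00691) and 0.48 higher in PH (adjusted p = 0.0152), and with stage it fell by 0.40 in ITGA6-low cells (adjusted p = 0.0265) and fell by 0.50 in ITGA6-high cells (adjusted p = 0.00868). *Canx*, the membrane-bound relative of *Calr*, differed by 0.22 (adjusted p = 0.111) and 0.21 (adjusted p = 0.105) between the fractions. The 250 bases before the gene start of *Calr* and *Hspa5* in the RefSeq table (GRCm38.p6) are shown because both genes passed in the same direction in all 4 comparisons and because both hold the letters of the endoplasmic reticulum stress element, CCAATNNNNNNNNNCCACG, which are in capitals. The *Calr* sequence is from the minus strand at chr8:84846932-84847181 and has the element as its reverse complement, starting 162 bases before the gene start. The *Hspa5* sequence is from the plus strand at chr2:34771840-34772089 with the element 65 bases before the gene start.
Calr: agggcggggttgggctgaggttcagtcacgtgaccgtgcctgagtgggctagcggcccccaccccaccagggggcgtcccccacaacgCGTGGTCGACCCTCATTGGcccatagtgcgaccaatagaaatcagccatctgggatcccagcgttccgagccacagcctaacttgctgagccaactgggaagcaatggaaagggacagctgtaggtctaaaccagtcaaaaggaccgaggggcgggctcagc
Hspa5: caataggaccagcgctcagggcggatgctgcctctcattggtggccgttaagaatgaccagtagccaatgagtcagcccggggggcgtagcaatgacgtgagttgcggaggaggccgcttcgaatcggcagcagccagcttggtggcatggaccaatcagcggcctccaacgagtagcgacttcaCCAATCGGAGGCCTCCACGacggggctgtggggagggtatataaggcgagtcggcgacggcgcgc

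The element, searched on both strands in 300 bases around each gene start, was present in 39 of 32851 promoters (0.119%), among them *Canx*, at 145 bases before its gene start. Of the 10 genes, 7 had a promoter in the table (*Calr*, *Casq1*, *Casq2*, *Jph2*, *Pln*, *Ryr2* and *Slc8a1*). The MEF2 motif CTAAAAATA was found in *Casq2* and in 0.517% of all promoters, and the GATA motif AGATAAG in *Slc8a1* and in 3.04%. The T-box motif AGGTGTGA was found in none of the 7 and in 1.28% of all promoters. These matches are descriptions of the letters in these windows, and the motifs were chosen with the expression values known.

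The sodium-calcium exchanger NCX1 (*Slc8a1*), which carries calcium out across the plasma membrane, did not pass between the fractions at any of its 3 probes. Its brightest probe, A_55_P2080758 (chr17:81844837-81844896), read 1436, 1500, 1212 and 1185 in EL and 944, 1089, 991 and 893 in EH at E15.5, and 471, 418, 1297 and 1135 in PL and 657, 600, 490 and 790 in PH at P2. EH lay below EL without overlap, but the difference of -0.44 had an interval of -1.11 to 0.23 (adjusted p = 0.538), and that of PH against PL was -0.23 (adjusted p = 0.819). PL samples 4 and 5 were far above PL samples 2 and 3, and this held at all 3 probes for the gene, up to 56.9 kb apart. With stage the 3 probes gave -0.85 (adjusted p = 0.0751), -0.69 and -1.53 in ITGA6-low cells, of which the last, at A_55_P2292435, passed (2.89-fold lower, adjusted p = 0.00225). The brightest probe passed in these cells under 5 of 18 alternatives, with values from -1.24 to -0.58 and adjusted p from 0.00515 to 0.213. A_52_P313285 passed there under 1 of 17 and A_55_P2292435 under 17 of 17. None of the 3 passed in ITGA6-high cells, although A_52_P313285 did so under 4 of 17 alternatives and A_55_P2292435 under 3 of 17.

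The same split of PL was seen in other measures. The summed signal of 6 endothelial genes was 326 and 388 in PL samples 2 and 3 and 1136 and 1546 in samples 4 and 5, and this split was that of *Kdr*, which read 272, 344, 1104 and 1512. *Pecam1* did not share it, since it read 34.6, 18.9, 17.3 and 19 and was well above background in samples 2 and 3 and not in samples 4 and 5. *Cdh5*, *Tek*, *Emcn* and *Npr3* were well above background on 0 PL microarrays. The share of probes well above background was 39.8 and 39.3% in PL samples 2 and 3 and 36.0 and 35.7% in samples 4 and 5. *Pln*, *Atp2a2*, *Ryr2*, *Jph2*, *Casq1* and *Casq2* were lower in PL samples 4 and 5 than in samples 2 and 3. *Sln*, *Calr* and *Trdn* at its brightest probe did not split in this way. *Trdn* at A_55_P2401646 went the other way, with 692 and 812 in samples 2 and 3 and 922 and 849 in samples 4 and 5. The split was noticed after the values were seen, and the share of all probes that had it was not counted. The part of this split in the P2 results was not tested.

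**Figure D4:**
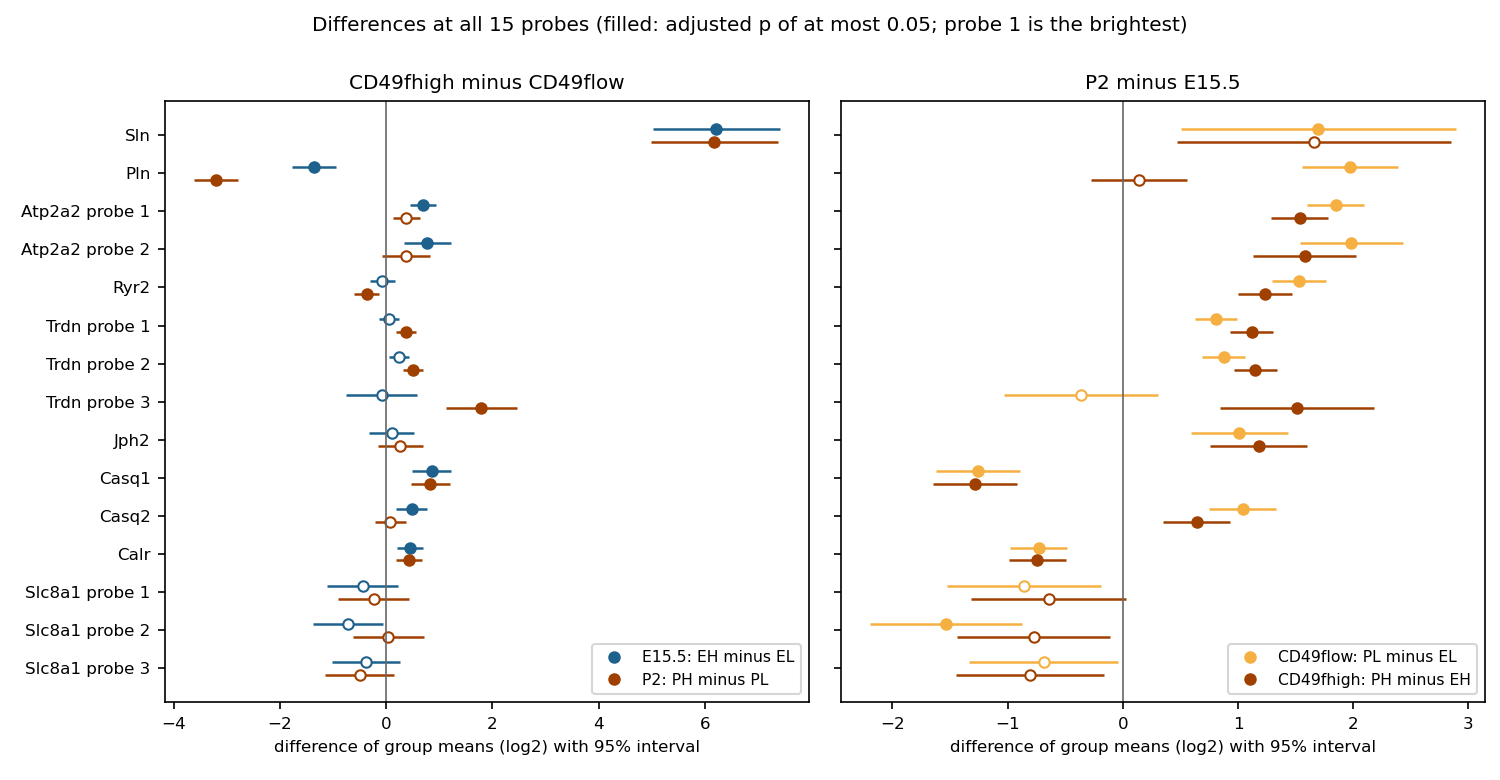
Log2 differences of the 15 probes, on the left CD49fhigh minus CD49flow at E15.5 (EH-EL) and P2 (PH-PL) and on the right P2 minus E15.5 in CD49flow (PL-EL) and CD49fhigh cells (PH-EH). Bars are unadjusted 95% intervals, filled points passed at an adjusted p of at most 0.05, and probes of a gene are numbered from the brightest. *Sln* stands apart on the left at 6.22 and 6.18, and on the right *Casq1* and *Calr* lie below 0 in both fractions.

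With stage, 7 of the 10 genes rose and 2 fell in ITGA6-low cells, and 5 rose and 2 fell in ITGA6-high cells. Among all probes, 9.7% rose and 10% fell in ITGA6-low cells and 9.12% rose and 8.37% fell in ITGA6-high cells, and among probes well above background these shares were 21.3 and 23.1%, and 19.7 and 18.9%. The median difference of the 10 genes was 1.03 in ITGA6-low and 0.88 in ITGA6-high cells, beside 0.01 and 0.03 for all probes. With the 3-fold limit added, *Sln*, *Pln* and *Atp2a2* were called higher in ITGA6-low cells, where 1.6% of all probes were called higher and 2.15% lower, and 0 of the 10 genes was called in ITGA6-high cells, where 1.3% were called higher and 2.1% lower. The genes that rose in both fractions were *Atp2a2*, *Ryr2*, *Trdn*, *Jph2* and *Casq2*, which belong to the pump, the release channel and its partners. *Casq1* and *Calr* fell in both, while *Pln* and *Sln* passed as higher in ITGA6-low cells alone, which is not a test of a difference between the fractions for *Sln*. All P2 microarrays lay on 1 slide and all E15.5 microarrays on 2 others, and the sorting procedure differed, so that stage, slide and procedure cannot be told apart. Markers of other cells also moved with stage. The summed signal of 5 fibroblast genes, with *Col1a1* as the brightest, was 7021 to 11833 in EL, 2741 to 5885 in EH, 275 to 920 in PL and 309 to 443 in PH, and that of 4 erythroid genes, with *Hba-a1* as the brightest, was 3629 to 30387 in EL, 5302 to 33974 in EH, 351 to 870 in PL and 227 to 331 in PH. The sum of 4 epicardial genes (*Wt1*, *Upk3b*, *Msln* and *Aldh1a2*) was 1588 to 2926 in EL, 397 to 2106 in EH, 14.5 to 87.7 in PL and 54.4 to 143 in PH. That of the 7 CM markers was 487740 to 534640 in EL, 683880 to 730250 in EH, 785120 to 826320 in PL and 719800 to 803840 in PH. *Actc1* was the brightest of these CM markers, but *Myh6* differed most between EL and the other groups. Mean *Myh6* was 69327 in EL, while the means of EH, PL and PH were 246810, 271280 and 256367. From EL to EH, mean *Actc1* went from 289567 to 291480. *Tnnt2*, *Nkx2-5* and *Tnni3* had higher means in EH than in EL, and *Actn2* and *Ttn* lower ones. The higher CM sum of EH came mostly from *Myh6*. The part of the fibroblast, erythroid, epicardial and CM markers in the stage differences was not tested.

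At E15.5, markers of blood were highest in sample 6 of both fractions. The erythroid sum was 30387 in EL sample 6 and 33974 in EH sample 6, and the sum of 4 leukocyte genes, with *Csf1r* as the brightest, was 1591 and 6533. The endothelial genes *Cdh5* and *Emcn* were well above background on all 4 EH microarrays and on 0 EL microarrays. *Pecam1* was so on 4 EH and 1 EL microarrays, *Tek* on 3 and 0, and *Npr3* on 4 and 3. *Kdr*, the brightest endothelial gene, had a mean of 834 in EH and 1037 in EL (adjusted p = 0.802). The summed signal of these 6 genes overlapped, with 1032.5 to 1201 in EL and 742 to 1736 in EH. Without samples 6 of EL and EH, a choice made after seeing the data, *Sln* (6.19), *Pln* (-1.28), *Atp2a2* (0.76) and *Casq1* (0.97) were still called in EH against EL, whereas *Casq2* (0.55, adjusted p = 0.0749) and *Calr* (0.42, adjusted p = 0.139) were not. Within the slide that held 3 EH and 2 EL samples, the differences were 6.33 for *Sln*, -1.33 for *Pln*, 0.72 for *Atp2a2*, 0.97 for *Casq1*, 0.46 for *Casq2* and 0.38 for *Calr*. Within the slide that held 1 EH and 2 EL samples, they were 6.11, -1.52, 0.53, 0.51, 0.38 and 0.53 in the same order. With the slide as a fixed block, *Sln*, *Pln*, *Atp2a2* and *Casq1* were still called, whereas *Casq2* (0.43, adjusted p = 0.076) and *Calr* (0.43, adjusted p = 0.0502) were not. All 6 had the same direction on both slides, while *Jph2* gave 0.14 on the first and -0.11 on the second.

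A further 41 genes of calcium handling were grouped by role, from other pumps to store-operated entry. Of these, 9 were higher, 5 lower and 27 did not pass in EH against EL, and 10 were higher, 7 lower and 24 did not pass in PH against PL. As given above, 4.27% of all probes were higher and 3.83% lower in EH, and 6.15% were higher and 5.41% lower in PH, or 9.77 and 8.93%, and 14.1 and 12.1%, of the probes well above background. Over the alternatives, 5 to 13 of the 41 genes were higher and 3 to 6 lower in EH, with the fewest higher under scaling to the 75th percentile, and 8 to 14 were higher and 6 to 8 lower in PH. The largest differences were in release channels. *Ryr3*, a ryanodine receptor of low abundance in most tissues, read 90.6, 104, 63.9 and 71.9 in EL and 917, 787, 606 and 695 in EH at E15.5, and 31.7, 35.3, 48.9 and 20.7 in PL and 1829, 1011, 841 and 904 in PH at P2. Both ITGA6-high groups were far above both ITGA6-low groups, by 3.19 at E15.5 (9.16-fold, adjusted p = 6.53e-06) and by 5.06 at P2 (33.4-fold, adjusted p = 3.95e-08), and the last PL sample was not well above background. With the normexp correction, which acts on dim signals such as those of PL, the differences were 2.50 and 3.60. The difference was larger at P2 by 1.87 (adjusted p = 0.0196). *Ryr1*, the skeletal muscle channel, was well above background on 0 microarrays, though its dim signal passed as higher in EH (adjusted p = 0.00685).

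*Itpr2*, an inositol trisphosphate receptor that releases calcium from internal stores, read 1025, 1140, 1240 and 948 in EL and 1027, 1056, 1329 and 1050 in EH, with overlap (0.03, adjusted p = 0.971). At P2 it read 1587, 1594, 1155 and 1157 in PL and 305, 237, 185 and 243 in PH. It fell by 2.51 in PH against PL (5.69-fold, adjusted p = 1.58e-07), and the difference between the stages was -2.54 (adjusted p = 3.9e-05). *Itpr1* and *Itpr3* were higher in PH by 0.88 (adjusted p = 0.000321) and 0.98 (adjusted p = 0.00034), so that the receptors of this family moved in both directions at P2. Among regulators of the release channel, *Fkbp1b*, which encodes the protein that stabilizes the closed ryanodine receptor, read 329, 411, 296 and 276 in PL and 1044, 1212, 1159 and 1055 in PH. It was 1.78 higher in PH (3.44-fold, adjusted p = 1.15e-07) but 0.38 in EH against EL (adjusted p = 0.0563), with a difference of 1.41 between the stages (adjusted p = 0.000198). *S100a1*, a calcium sensor that binds SERCA2 and the ryanodine receptor, fell by 1.04 in EH against EL (2.05-fold, adjusted p = 0.000148) and fell by 0.65 in PH against PL (adjusted p = 0.0038).

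Among the pump genes, the skeletal SERCA1 gene *Atp2a1* was 0.91 higher in EH (adjusted p = 0.00901) and 0.22 in PH (adjusted p = 0.634). *Ppp1r1a*, which encodes an inhibitor of the phosphatase that acts on phospholamban, was 1.64 higher in PH than in PL (3.11-fold, adjusted p = 2.9e-06) and 0.13 in EH against EL (adjusted p = 0.723), with a difference of 1.5 between the stages (adjusted p = 0.00086). Of 6 further genes of the SR lumen, *Hrc*, *Hspa5* and *Calu* passed as higher in EH (4.27% of all probes) and *Srl* and *Hspa5* in PH (6.15% of all probes). Of the 7 junction genes, *Bin1*, which shapes the transverse tubules, was higher in EH by 1.77 (3.42-fold, adjusted p = 0.0158) and not well above background at P2. Its signal was 23.1, 24.9, 45.1 and 21.5 in EL and 62.5, 50.8, 194 and 124 in EH, with sample 6 highest in both, and the call was lost without EL sample 8 (adjusted p = 0.0511) or EH sample 8 (adjusted p = 0.0531). With the normexp correction the difference was 0.87. *Jph1*, the skeletal muscle junctophilin, was well above background on 0 PL and all 4 PH microarrays and at least 1.58-fold higher in PH (adjusted p = 0.025), measured against the lowest signal well above background on the PL microarrays. This call was lost under 5 of 17 alternatives (adjusted p up to 0.0876), among them without PL sample 3, PH sample 3 or PH sample 5, and with the normexp correction the difference was 0.41.

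Of 6 extrusion genes, *Atp2b2* and *Slc8a2* were lower in EH and 4 did not pass (3.83% of all probes were lower), and *Slc8a2* and *Slc8a3* were lower in PH and 4 did not pass (5.41% of all probes were lower). The median difference of the 6 was -0.16 and -0.09. *Slc8a3*, a second sodium-calcium exchanger, fell by 1.33 in PH against PL (2.51-fold, adjusted p = 0.0144), but its second probe gave -0.29 (adjusted p = 0.936) and the call was lost with the median over both probes (-0.81, adjusted p = 0.208). *Stim1*, the sensor of SR calcium that opens store-operated channels, fell by 0.98 in EH against EL (adjusted p = 0.0039) and fell by 1.82 in PH against PL (3.53-fold, adjusted p = 1.19e-05). *Orai1*, the channel it opens, fell by 0.65 in PH against PL (adjusted p = 0.0059) and differed by 0.03 in EH against EL (adjusted p = 0.971).

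**Figure D5:**
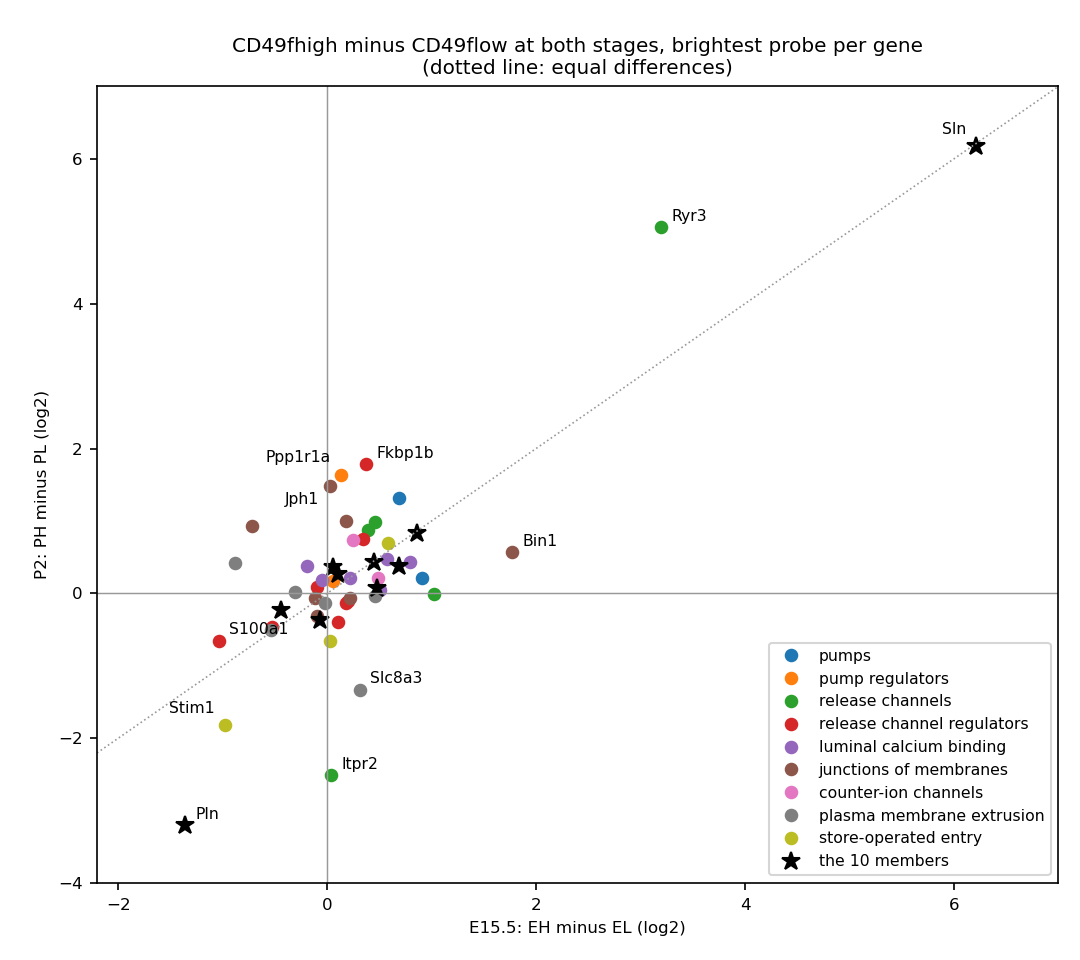
Log2 difference of CD49fhigh minus CD49flow at P2 (vertical axis, PH-PL) against that at E15.5 (horizontal axis, EH-EL) for the 41 further calcium handling genes, colored by role, and for the 10 chosen genes as stars, with the dotted line where both are equal. *Sln* (6.22 and 6.18) and *Ryr3* (3.19 and 5.06) lie at the upper right, and *Pln* (-1.36 and -3.20) and *Itpr2* (0.03 and -2.51) lie below the other genes.

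The patterns over the 16 microarrays, which fall into 4 groups, can also be described by Pearson's r between log2 signals, over 13029 genes and without a test. The genes most like *Sln* were *Mybphl* (r = 0.996), *Fgf12* (r = 0.993) and *Stard10* (r = 0.989), and those most like *Pln* were *Lrpprc* (r = 0.982), *Lclat1* (r = 0.975) and *Trak2* (r = 0.975). For *Atp2a2* they were *Art3* (r = 0.991), *Rbfox1* (r = 0.989) and *Fam174b* (r = 0.988). The genes nearest to *Calr* were *Pdia3* (r = 0.978), *Sdf2l1* (r = 0.978) and *Pdia4* (r = 0.976), which encode proteins of the endoplasmic reticulum, and *Pdia4* was also the nearest to *Casq1* (r = 0.984). Among the 10 genes themselves, *Casq1* and *Calr* were the most alike (r = 0.962), followed by *Atp2a2* and *Casq2* (r = 0.951) and *Atp2a2* and *Trdn* (r = 0.944). The most opposed pairs were *Ryr2* and *Calr* (r = -0.854), *Casq2* and *Slc8a1* (r = -0.841) and *Jph2* and *Slc8a1* (r = -0.836), and r was -0.695 for *Sln* and *Pln*. Since stage and fraction set most of these values, r describes shared group levels and not 16 independent samples.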

How the data were processed

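For each microarray, the authors deposited the scanner output of Agilent Feature Extraction 10.7.3.1 (mm9 per the labels), which holds raw, background and processed signal intensities, and, separately, log2 values per probe that they had quantile normalized. Their own comparison was an analysis of variance with Tukey's test and a limit of 3-fold. The first 2 steps, without the limit, are called the methods' test here, and the limit was tried separately with limma. The processed signal intensities of 59305 spots were used without control and outlier spots, averaged to 55681 probes (432 with more than 1 spot), quantile normalized and transformed to log2, and no pseudocount was added. Quantile normalization assumes equal signal distributions in all groups. The deposited log2 values correlated with these with r = 1 on each microarray. limma 3.58.1 (R 4.3.3, with the package data.table, version 1.17.8) fitted a mean per group, and p-values were adjusted by Benjamini-Hochberg; 8 probes, none of them of the 10 genes, lacked a value on some microarray and were fitted on the others. Intervals are 95% and not adjusted. The number of microarrays limits the precision. On simulated data with 55673 probes, the test found 36 of 100 probes changed 1.5-fold and 93 of 100 changed 3-fold in EH against EL, and 38 and 91 of 100 in PH against PL, and called 9 and 6 of 55473 unchanged probes. The changed probes were drawn from those well above background on all microarrays, and the noise was independent, without slide or sorting effects. Far fewer probes were changed than passed in the data, which makes the adjusted threshold stricter in the simulation. These shares are therefore not the power or error of the test in the data.

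The 10 genes, the 41 further genes, the marker lists and the tests were chosen with earlier results of these data known. Named among the 41 genes were those that passed with at least a 2-fold difference without overlap, and further genes were named for comparison after their values were seen. Likeness was ranked by r over the brightest probe of each gene.

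Alternatives were the 75th percentile in place of quantiles, normexp (offset 50), the deposited values, a floor for dim signals, only probes well above background, the methods' test, medians over probes, slide and sample number as blocks, and leaving out each sample. Samples of the same number deviated together from their group means at E15.5 (r = 0.255, 0.189, 0.450 and 0.379), but not all did at P2 (r = 0.375, 0.176, -0.03 and 0.542). Of 120 pairs of microarrays, 0 held identical values. Figures were made with Python 3.11.15, matplotlib 3.10.9, pandas 2.3.3 and numpy 2.4.6.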

Additional observations from a re-analysis of the deposited data

Results flagged for a closer look

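In 3 of 60 groups of 4 samples, over the 15 probes, 1 sample lay far from the other 3. Chance alone would give about 1 in 20 such groups. *Casq1* was lowest in EH sample 6 at 510, beside 691 to 723 in the other EH samples. *Trdn* at probe 1 was highest in EH sample 3 at 3264, beside 2844 to 2914. *Slc8a1* at A_55_P2292435 was highest in EH sample 3 at 304, beside 193 to 210.

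The difference between the fractions differed between the stages for 2 of the 15 probes, by limma's test of the difference itself. By the same test, 1.81% of all probes passed above 0 and 1.35% below 0, or 4.19 and 3.01% of the probes well above background. For *Pln* it was -1.83 (adjusted p = 0.00184), with the ITGA6-high fraction lower at both stages and more so at P2. For *Trdn* at probe 3 it was 1.88 (adjusted p = 0.0327), with the signal of PL well above background on 1 of 4 microarrays.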

How the results depend on the processing

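The calls of *Sln*, *Pln* and *Casq1* between the fractions at both stages, and of *Atp2a2* in EH against EL, were kept under every alternative computed except the added limit of 3-fold, under which *Sln* remained at both stages and *Pln* at P2. The stage and the slide cannot be told apart, and the slide as a fixed block was not run for stage contrasts. The deposited signals near background are limited by the background subtraction, as for *Trdn* probe 3. Pairing the samples by number in a replicate block changed the count of genes lower in PH from 2 to 1, as *Ryr2* was lost, and *Casq2* in EH against EL had an adjusted p of 0.0505 with it. The methods' test gives no interaction, and medians over probes give no count over all probes.

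With the 3-fold limit added, EH against EL gave 1 gene higher and 0 lower (654 and 253 of all probes), PH against PL 1 and 1 (966 and 510), the difference between the stages 335 and 335 probes, PL against EL 3 and 0 genes (891 and 1198 probes), and PH against EH 0 and 0 genes (723 and 1167 probes), by construction of the limit. Scaling to the 75th percentile moved the median of all probes from -0.02 to -0.18 in EH against EL, to -0.14 in PH against PL, to 0.19 in PL against EL and to 0.19 in PH against EH. It left 3 genes higher in EH, while the count over all probes went from 2376 to 1798. In PH it left 2 genes higher, while the count over all probes went from 3423 to 2373. It gave 649 probes with a positive difference between the stages. *Trdn* turned to -0.10 in EH against EL and *Casq2* to -0.11 in PH against PL. The differences between the stages turned to 0.0614 for *Casq1* and 0.0099 for *Calr*, and none of these 4 was called. The normexp correction gave 5951 probes lower in PH. A floor for dim signals, which differs per microarray, left 3 genes higher in EH (2017 of all probes). In PH it left 2 genes higher and 1 lower (2491 and 2427 of all probes), and it gave 31704 probes higher in PH against EH. The slide as a fixed block left 3 genes higher in EH (2320 of all probes), as *Casq2* and *Calr* were lost. It gave 0.0239 for the difference between the stages of *Casq1*. Without samples 6 of EL and EH, chosen after seeing the data, 3 genes were higher in EH, with 1827 probes higher and 1343 lower among all probes. A positive difference between the stages was then called for 656 probes, and that of *Calr* was 0.007.

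Leaving out 1 sample at a time gave 3 to 5 genes higher in EH, 1 to 2 genes lower in PH and 0 to 1 genes with a positive difference between the stages. *Jph2* in EH against EL ranged from -0.0402 to 0.187 and *Slc8a1* in PH against PL from -0.502 to 0.0435. The differences between the stages ranged from -0.55 to 0.55 for *Sln*, -0.199 to 0.0706 for *Casq1*, -0.0935 to 0.0508 for *Calr* and -0.0601 to 0.485 for *Slc8a1*. Apart from changes that follow from how an alternative was built, the cause was not tested.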
